A study of Mus musculus with 6 samples.

Results

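Macrophages, granulocytes and lymphocytes of the embryonic pylorus were followed through 34 genes, chosen by symbol for the leukocyte type in which each is known to be expressed. The value table held a named probe for 31 of them, among 18507 named genes, and 28 passed the filter on dim spots, among 16764 genes tested. No probe is named here for Csf1r, Cd68 or Cd52, and the only probe that lists Cd52 lists another gene as well. By known role the list held 15 macrophage genes, 3 granulocyte genes, 7 genes of B and T lymphocytes, 5 genes of leukocytes at large, 3 secreted signals and Lyz1, a lysozyme of intestinal Paneth cells.

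The tissue came from mouse embryos at E18.5, late in gestation, from crosses between mice that carry 1 copy of a Cre allele of Bapx1, the older name of Nkx3-2. Nkx3-2 is a homeodomain transcription factor of gut and spleen mesenchyme and of the skeleton, and the study asked how its loss alters the pylorus. The groups were 3 embryos labelled knockout and 3 littermates labelled wildtype, genotyped from the yolk sac; strain and sex are not given in the sources used here. Each piece was the distal stomach with 1 to 2 mm of tissue to each side of the pyloric narrowing. Epithelium, muscle, nerve, vessels and blood were thus measured together, and 1 embryo was hybridised per CodeLink array. Animal codes that begin with the same digits, each covering 1 embryo of either label, were taken to mark a litter, giving pairs 1 to 3.

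Macrophages settle in the gut wall before birth, where they engulf dying cells, and they depend on the growth factor Csf1 and its receptor. Their identity is set by the transcription factor Spi1 (PU.1), and they carry complement C1q, the adaptors Tyrobp and Fcer1g, and scavenger and pattern receptors. Granulocytes carry S100a8 and S100a9, which form the calcium-binding heterodimer calprotectin. B and T cells read antigen through receptors whose signalling chains are Cd79a and Cd79b in B cells and the Cd3 chains, Lck and Zap70 in T cells. Few mature lymphocytes are present in the gut before birth.

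Values below are log2 intensities after background correction and quantile normalization, so a difference of 1 is a doubling of signal, and levels of different probes are not comparable. Differences are arrays labelled knockout minus arrays labelled wildtype, with the standard error (SE) of the limma fit. A gene was called at an adjusted p under 0.05 (limma with Benjamini-Hochberg adjustment over all 16764 genes). Pair 1 was scanned apart, in batch A, and was brighter, with a median spot signal above background of 207 on its array labelled knockout and 204 on that labelled wildtype, against 109 to 131 in pairs 2 and 3 of batch B. On an array 13.2% to 16.7% of probes were flagged near background. The Nkx3-2 probe read 7.73, 8.02 and 7.79 on the arrays labelled knockout and 7.47, 7.75 and 7.99 on those labelled wildtype, pairs 1 to 3 in order. The groups overlapped and the probe was not lower in arrays labelled knockout (difference 0.11, SE 0.19, limma adjusted p = 1.00). The position of this probe in the gene was not analysed here, so it does not check the labels, and the groups are named by label throughout. Smooth muscle markers were detected, with 6 of 6 tested, as were 9 of 9 markers of pyloric and splenic mesenchyme.

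Between the labels no leukocyte gene passed the test. Of the 28 tested, 19 were higher and 9 lower in arrays labelled knockout, with a median difference of 0.02, against -0.01 over all genes tested. The members' differences ran from -0.38 for Cd14 to 0.46 for S100a8, with a median size of 0.06 and a median SE of 0.21. None was called by limma, where the share called over all genes was 0%, and none reached an unadjusted p under 0.05, where 1.13% of all genes did. With litter pair as a block 1 member, Cd14, reached that unadjusted level, beside 4.53% of all genes, and with scan batch as a block 2 did, Cd14 and Zap70, beside 5.83%. Of the 27 members with a value on all arrays, 2 (Ctss and Cd4) were higher and 2 (Cd14 and Zap70) lower in every pair. Over all genes 11.5% were higher and 11.6% lower in every pair, 23.0% in either direction. The groups did not overlap for 1 of 28, Zap70, which was lower in arrays labelled knockout. Over all genes 2.51% were higher without overlap and 1.52% lower, 4.03% in either direction.

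**Figure D1:**
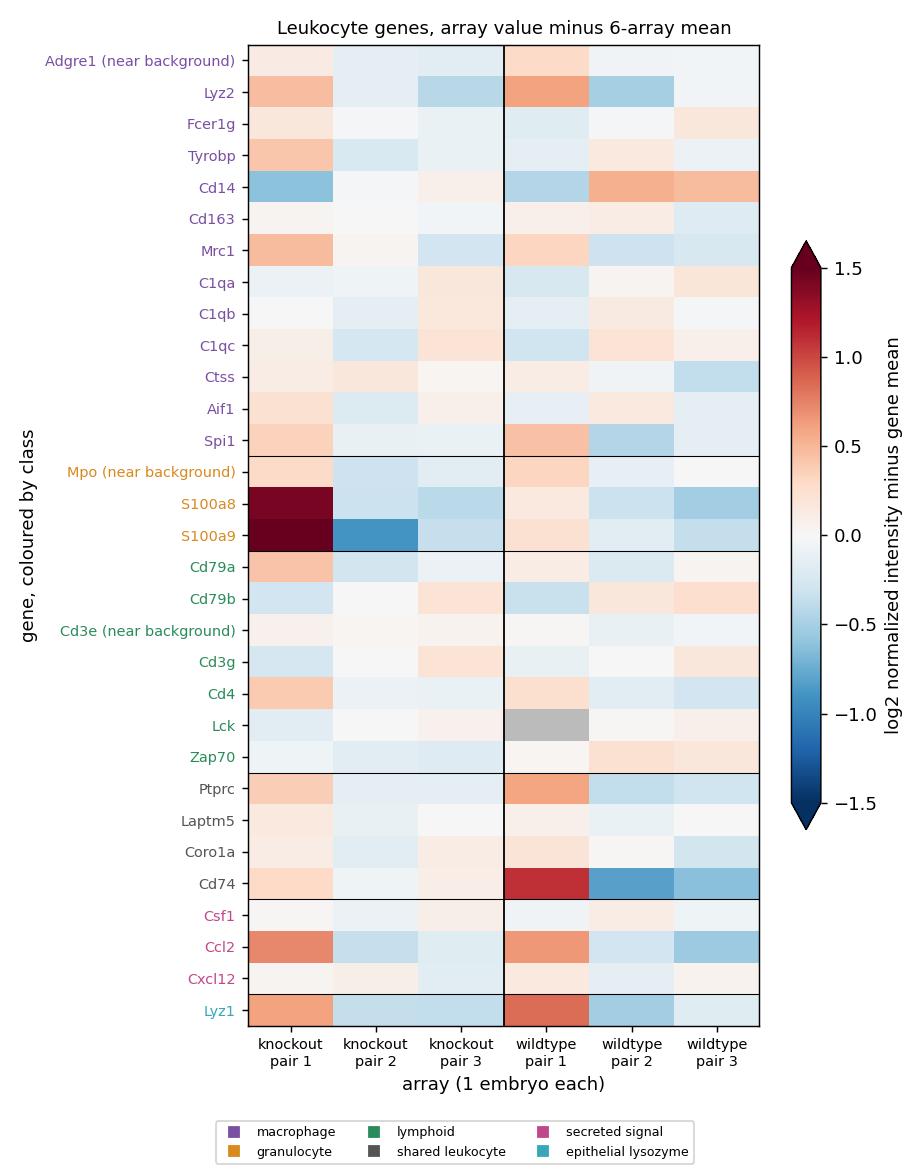
Each row is a leukocyte gene, coloured by class, and each column an array of 1 embryo, those labelled knockout left of those labelled wildtype; colour gives the log2 value minus the gene's mean over 6 arrays. The pair 1 arrays of both labels stand out for Lyz1, Ccl2 and Ptprc and that labelled knockout for S100a8 and S100a9, while no block of genes separates the labels.

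The macrophage genes were close to level. Of 12 tested, 9 were higher and 3 lower in arrays labelled knockout, with a median of 0.02. The complement chains C1qa, C1qb and C1qc, which together form the C1q molecule that tags dying cells and immune complexes, are among the RNAs most typical of tissue macrophages. C1qb read 11.40, 11.25 and 11.54 on arrays labelled knockout and 11.24, 11.52 and 11.37 on those labelled wildtype. C1qc read 11.21, 10.86 and 11.32 on arrays labelled knockout and 10.82, 11.32 and 11.19 on those labelled wildtype. The groups overlapped for both, and the differences were 0.02 (SE 0.16) for C1qb and 0.02 (SE 0.20) for C1qc. C1qa gave 10.10, 10.12 and 10.36 on arrays labelled knockout, against 9.94, 10.23 and 10.37 on those labelled wildtype. By pair, C1qc was higher in arrays labelled knockout in pair 1 (0.38), lower in pair 2 (-0.46) and higher in pair 3 (0.13), so no direction held across litters for this chain.

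The signalling adaptors and other genes of resident macrophages gave the same kind of picture. Fcer1g, the gamma chain that transmits signals of activating Fc receptors, differed by 0.03 (SE 0.16). Tyrobp (DAP12), the adaptor of Trem2 and related receptors, read 9.45, 8.80 and 8.93 on arrays labelled knockout and 8.89, 9.18 and 8.94 on those labelled wildtype, a difference of 0.06 (SE 0.21). Its pair differences were 0.56, -0.37 and -0.02, so that the high value of the pair 1 array labelled knockout was not repeated in the other litters. Aif1 (Iba1), an actin-binding protein used as a macrophage marker, had pair differences of 0.35, -0.35 and 0.22. Spi1, the transcription factor PU.1 itself, differed by 0.09 (SE 0.26). Ctss, the lysosomal protease cathepsin S that trims the class II invariant chain, read 12.13, 12.18 and 12.05 on arrays labelled knockout and 12.12, 11.95 and 11.64 on those labelled wildtype. It was higher in arrays labelled knockout in every pair, by 0.01, 0.23 and 0.41, but 1 wildtype value lay inside the range of the arrays labelled knockout, and the difference of 0.21 (SE 0.17) was not called (limma adjusted p = 1.00).

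Of the surface receptors Cd14 had the widest difference. It is the co-receptor that passes bacterial lipopolysaccharide to Toll-like receptor 4. Its probe read 9.29, 9.88 and 9.99 on arrays labelled knockout and 9.47, 10.44 and 10.38 on those labelled wildtype. Within every litter the array labelled knockout was the lower one, by 0.19, 0.56 and 0.40 on the log2 scale, although the groups overlapped because both pair 1 arrays lay below the rest. The difference was -0.38 (SE 0.32; limma adjusted p = 1.00), and with litter pair as a block its SE was 0.12 (unadjusted p = 0.0238, limma adjusted p = 1.00). Cd163, the scavenger receptor for haemoglobin, differed by -0.00 (SE 0.15). Mrc1, the mannose receptor of resident macrophages, differed by 0.15 (SE 0.27), with pair differences of 0.15, 0.36 and -0.05. Adgre1, the classical surface marker of mouse macrophages, was too dim to test. It was flagged near background on 3 of 3 arrays labelled knockout and on 2 of 3 labelled wildtype, so no difference is given for it.

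The lysozyme genes are shown with their promoters because Lyz2, the lysozyme of macrophages and granulocytes, and Lyz1, that of Paneth cells, are neighbouring near copies on chromosome 10. The RefSeq windows (GRCm38.p6, minus strand, around the gene start, 5′ to 3′) are chr10:117282223-117282522 for Lyz2 and chr10:117292819-117293118 for Lyz1. Capitals mark the C/EBP letters TTGCNNAA, a PU.1 core GAGGAA or a TATA box TATAAA, searched on both strands.
Lyz2: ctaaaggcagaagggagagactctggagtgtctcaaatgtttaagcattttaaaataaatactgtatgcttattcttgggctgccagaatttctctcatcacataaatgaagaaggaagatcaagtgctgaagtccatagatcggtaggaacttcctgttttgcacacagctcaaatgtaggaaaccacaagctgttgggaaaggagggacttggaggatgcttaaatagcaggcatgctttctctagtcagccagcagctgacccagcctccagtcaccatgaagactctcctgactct
Lyz1: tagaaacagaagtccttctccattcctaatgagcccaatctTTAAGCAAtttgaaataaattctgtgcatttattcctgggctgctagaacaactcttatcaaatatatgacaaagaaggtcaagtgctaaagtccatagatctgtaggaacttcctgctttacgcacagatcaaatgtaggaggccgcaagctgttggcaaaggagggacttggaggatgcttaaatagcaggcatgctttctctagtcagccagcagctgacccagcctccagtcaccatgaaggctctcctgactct
The windows were identical at 254 of 310 aligned columns (81.9%). Lyz1 held the C/EBP letters at bases 42 to 49 on the minus strand, and the Lyz2 window held none of the 3 motifs. C/EBP letters occur in 10.8%, PU.1 letters in 28.3% and TATAAA in 13.6% of 32851 promoter windows of this length, so a match is a description only.

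Lyz2 read 8.48, 7.88 and 7.60 on arrays labelled knockout and 8.62, 7.52 and 7.97 on those labelled wildtype, a difference of -0.05 (SE 0.34). Lyz1 read 9.11, 8.14 and 8.13 on arrays labelled knockout and 9.35, 7.98 and 8.32 on those labelled wildtype, a difference of -0.09 (SE 0.42). The labels overlapped for both genes, and both were higher in the arrays of pair 1 than in any other array. Pair 1 exceeded pairs 2 and 3 by 0.81 for Lyz2 (SE 0.16, limma adjusted p = 0.00806) and by 1.08 for Lyz1 (SE 0.13, limma adjusted p = 0.0016). Whether each probe also binds the transcript of the other copy was not tested.

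Of the granulocyte genes, S100a8 and S100a9 were tested, and both were highest on 1 array, that labelled knockout in pair 1. S100a8 and S100a9 lie on chromosome 3, and their promoter windows are printed because both genes followed the same array. The windows are chr3:90668821-90669120 on the plus strand for S100a8 and chr3:90695672-90695971 on the minus strand for S100a9 (RefSeq, GRCm38.p6, capitals as above).
S100a8: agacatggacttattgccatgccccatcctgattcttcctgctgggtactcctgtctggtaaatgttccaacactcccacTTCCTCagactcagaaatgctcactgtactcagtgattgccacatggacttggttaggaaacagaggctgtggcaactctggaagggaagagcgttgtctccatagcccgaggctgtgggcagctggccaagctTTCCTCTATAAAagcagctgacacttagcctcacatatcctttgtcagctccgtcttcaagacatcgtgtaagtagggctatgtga
S100a9: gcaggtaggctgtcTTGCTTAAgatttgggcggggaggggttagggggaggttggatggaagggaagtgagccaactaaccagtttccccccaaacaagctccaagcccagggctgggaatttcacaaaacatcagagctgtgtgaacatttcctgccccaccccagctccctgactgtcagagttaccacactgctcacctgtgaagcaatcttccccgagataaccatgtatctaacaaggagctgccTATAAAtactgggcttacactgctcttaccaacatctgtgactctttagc
S100a8 held PU.1 letters at bases 81 to 86 and 215 to 220, both on the minus strand, and a TATA box at 221 to 226. S100a9 held C/EBP letters at bases 15 to 22 and a TATA box at 251 to 256.

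S100a8 read 10.32, 8.57 and 8.49 on arrays labelled knockout and 9.03, 8.57 and 8.37 on those labelled wildtype. S100a9 read 10.69, 8.26 and 8.80 on arrays labelled knockout and 9.39, 8.99 and 8.80 on those labelled wildtype. For both genes the pair 1 array labelled knockout was highest by more than 1 log2 unit, the pair 1 array labelled wildtype came next, and the other arrays of both labels overlapped. The differences of 0.46 for S100a8 (SE 0.50) and 0.19 for S100a9 (SE 0.60) were not called (limma adjusted p = 1.00 for both). Without the pair 1 array labelled knockout they were -0.13 for S100a8 and -0.53 for S100a9, and within batch B 0.06 for S100a8 and -0.36 for S100a9. Mpo, the myeloperoxidase of immature granulocytes, was flagged near background on 2 of 3 arrays of each label and was not tested.

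Liver markers were also high on that array. Of 10 liver markers listed 8 were tested, and all 8 were higher in arrays labelled knockout, with a median of 0.76, and their mean level about the average of the arrays was 2.34, -0.54 and -0.76 on arrays labelled knockout and -0.41, -0.41 and -0.23 on those labelled wildtype. Afp, alpha-fetoprotein of fetal liver, read 11.99, 8.97 and 8.75 on arrays labelled knockout and 9.34, 8.25 and 8.64 on those labelled wildtype. The fetal liver is a site of blood formation, and the part of liver RNA in the S100a8 and S100a9 values was not tested.

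**Figure D2:**
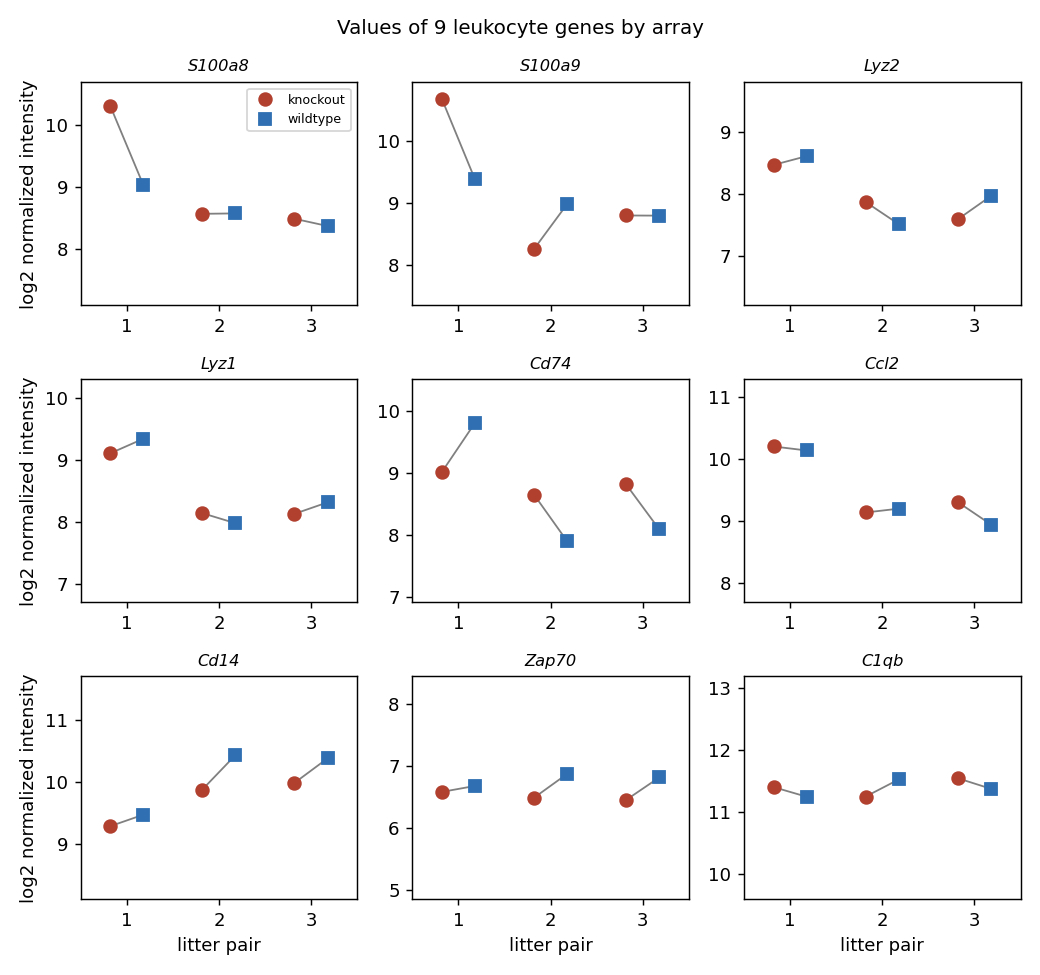
Log2 normalized intensity of 9 leukocyte genes by litter pair, each point 1 array of 1 embryo, with arrays labelled knockout drawn left of those labelled wildtype. S100a8 and S100a9 peak on the pair 1 array labelled knockout, at 10.32 and 10.69, and Cd14 is lower in the array labelled knockout of every pair.

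The lymphoid genes differed little between labels. Of 6 tested, 2 were higher and 4 lower in arrays labelled knockout, with a median of -0.05. Of the B cell receptor chains, Cd79a read 10.21, 9.51 and 9.69 on arrays labelled knockout and 9.89, 9.57 and 9.82 on those labelled wildtype, a difference of 0.05 (SE 0.22). Cd79b, its partner chain, read 7.19, 7.48 and 7.69 on arrays labelled knockout and 7.16, 7.66 and 7.74 on those labelled wildtype, a difference of -0.06 (SE 0.22). The groups overlapped for both chains.

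Among T cell genes Zap70, the kinase recruited to the activated receptor, came closest to separating the labels. It read 6.58, 6.48 and 6.45 on arrays labelled knockout and 6.67, 6.87 and 6.81 on those labelled wildtype. Every array labelled knockout lay below every array labelled wildtype, with pair differences of -0.10, -0.39 and -0.36. The difference of -0.28 (SE 0.14, unadjusted p = 0.0871, limma adjusted p = 1.00) was not called, and from the authors' own normalized intensities it was -0.57. The spots were dim, at 2.09, 1.97 and 1.90 times the local background on arrays labelled knockout and 2.35, 2.40 and 2.53 times on those labelled wildtype. An exact permutation test of 3 arrays against 3 cannot give a two-sided p below 0.1.

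The other T cell genes gave no such order. Cd4, the co-receptor of helper T cells that also marks lymphoid tissue inducer cells, read 8.69, 8.20 and 8.19 on arrays labelled knockout and 8.54, 8.14 and 8.01 on those labelled wildtype. It was higher in arrays labelled knockout in every pair, by 0.15, 0.06 and 0.18, within overlapping groups (difference 0.13, SE 0.22, limma adjusted p = 1.00). Lck, the kinase that starts T cell receptor signalling, had no value on the pair 1 array labelled wildtype, where its spot was flagged, and differed by -0.08 (SE 0.17) over the remaining 5 arrays, or by -0.02 with litter pair as a block. Cd3g, a receptor chain, differed by -0.04 (SE 0.18), and its spots were dim, at 1.68 to 2.48 times the local background. Cd3e, the chain most used to mark T cells, was near background on all 6 arrays, with spots at 1.20, 1.28 and 1.29 times the local background on arrays labelled knockout and 1.20, 1.11 and 1.20 times on those labelled wildtype. No difference is given for it, and none was detectable at this signal.

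**Figure D3:**
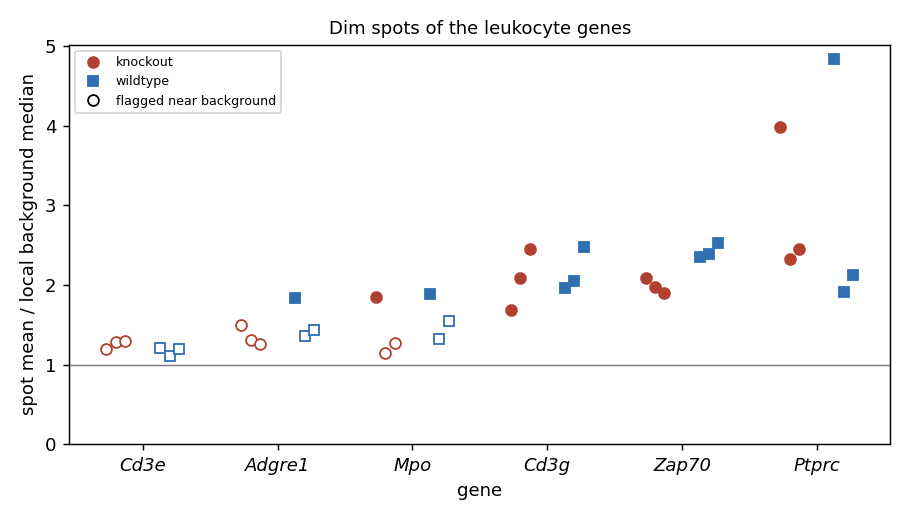
Spot mean over local background median for the dim leukocyte probes, each point 1 array, with arrays labelled knockout left of those labelled wildtype and a line at 1, where spot and background are equal. Cd3e lies at 1.11 to 1.29 on all 6 arrays, Adgre1 and Mpo stay below 2, and Zap70 lies at 1.90 to 2.53.

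Of the genes shared by leukocytes, 4 of 4 tested were higher in arrays labelled knockout, with a median of 0.05. None was higher in every pair, and the median difference was -0.15 in pair 1, 0.11 in pair 2 and 0.27 in pair 3. Ptprc (CD45), the phosphatase on nearly all leukocytes, read 7.26, 6.73 and 6.74 on arrays labelled knockout and 7.48, 6.51 and 6.59 on those labelled wildtype, a difference of 0.05 (SE 0.30). Laptm5, a lysosomal protein of blood cells, differed by 0.02 (SE 0.15). Coro1a, an actin regulator of leukocytes, differed by 0.04 (SE 0.18). A second Coro1a probe lacked values on 2 arrays labelled knockout and was not tested. In whole pieces of tissue, fewer cells of a type and less RNA per cell cannot be told apart for any of these genes.

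Cd74, the invariant chain that escorts class II molecules in antigen-presenting cells, had differences of opposite sign in different litters. It read 9.02, 8.65 and 8.82 on arrays labelled knockout and 9.81, 7.90 and 8.09 on those labelled wildtype. The pair 1 array labelled wildtype was the highest of all and the other 2 labelled wildtype were the lowest, so the groups overlapped and the pair differences were -0.80, 0.75 and 0.73. The difference over all arrays was 0.23 (SE 0.49, limma adjusted p = 1.00), within batch B it was 0.74 and without the pair 1 array labelled wildtype 0.83. It was -0.12 without the pair 2 array labelled wildtype and -0.03 without that of pair 3. The difference between labels was 1.54 lower in pair 1 than in pairs 2 and 3 (unadjusted p = 0.000573), and this contrast was not called (limma adjusted p = 0.325).

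Of the class II chains, H2-Aa and H2-Eb1 were highest and lowest on the same arrays as Cd74. H2-Aa, the alpha chain of the I-A molecule, read 9.31, 9.13 and 8.84 on arrays labelled knockout and 9.78, 8.26 and 8.06 on those labelled wildtype. H2-Eb1, the beta chain of the I-E molecule, read 8.58, 8.11 and 8.33 on arrays labelled knockout, and its pair differences were -0.43, 0.64 and 0.95. As for Cd74, the pair 1 array labelled wildtype was highest and those of pairs 2 and 3 were the lowest for both. H2-Ob, the beta chain of the H2-O modulator, did not follow them, with a difference of -0.19 and pair differences of 0.01, -0.23 and -0.34. The brightest probe of H2-Ab1, the beta chain of I-A, chosen after its values were seen, followed them only in part. It read 9.55, 9.24 and 9.60 on arrays labelled knockout and 9.69, 9.33 and 9.05 on those labelled wildtype. The pair 1 array labelled wildtype was thus highest and that of pair 3 lowest, with pair differences of -0.14, -0.08 and 0.56. The label difference was 0.11 on that probe and 0.51 on the other H2-Ab1 probe, whose pair differences are not given. Of 10 class II genes tested, 7 were higher and 3 lower in arrays labelled knockout, with a median of 0.08, and none was called by limma or reached an unadjusted p under 0.05.

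The secreted signals did not separate the labels either. Csf1, the growth factor of macrophages, read 7.31, 7.20 and 7.38 on arrays labelled knockout and 7.23, 7.39 and 7.22 on those labelled wildtype, a difference of 0.01 (SE 0.14). Ccl2, the chemokine that draws monocytes, read 10.20, 9.13 and 9.30 on arrays labelled knockout and 10.13, 9.19 and 8.94 on those labelled wildtype, a difference of 0.12 (SE 0.40). Cxcl12, a stromal chemokine that holds lymphocytes and progenitors in place, differed by -0.04 (SE 0.16). Ccl2 was high on both arrays of pair 1, whichever their label.

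Myeloid and lymphoid genes were then set side by side by litter. In pair 1 the median difference between labels was 0.15 for the 12 macrophage genes, 1.29 for the 2 granulocyte genes and 0.04 for the lymphoid genes, against 0.02 over all genes tested. In pair 2 it was -0.11 for the macrophage, -0.37 for the granulocyte and -0.04 for the lymphoid genes, against -0.02. In pair 3 it was 0.01 for the macrophage, 0.06 for the granulocyte and -0.03 for the lymphoid genes, against -0.02. None of these class medians kept a sign over the litters, and the lymphoid median stayed within 0.05 of 0 in each. The lymphoid median of pair 1 leaves out Lck, which had no value on the array labelled wildtype. The mean level of the macrophage genes about their average was 0.14, -0.08 and -0.03 on arrays labelled knockout and -0.00, -0.00 and -0.03 on those labelled wildtype. That of the lymphoid genes was 0.01, -0.09 and 0.01 on arrays labelled knockout and -0.01, 0.01 and 0.07 on those labelled wildtype, so both sets overlapped between labels.

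**Figure D4:**
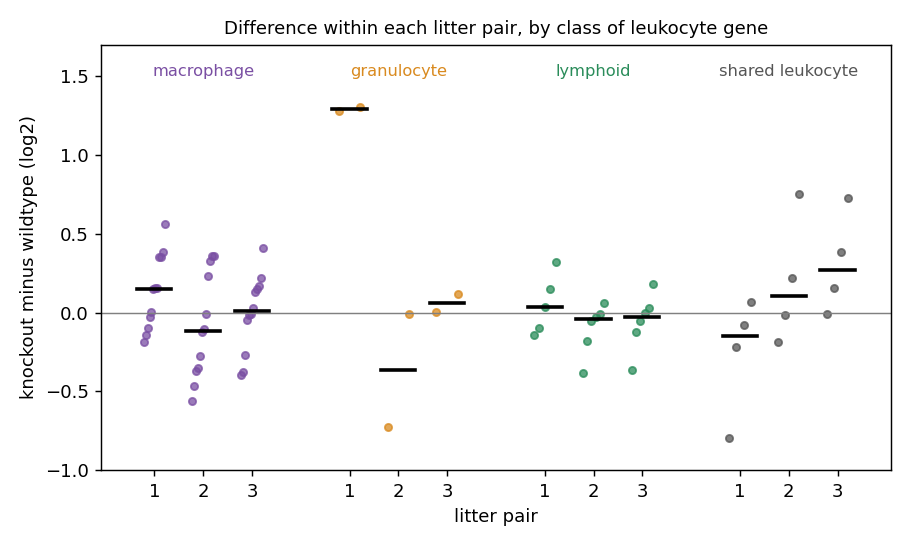
Difference between the array labelled knockout and that labelled wildtype within each litter pair (log2), each point 1 gene, by class, with the class median as a bar. The 2 granulocyte genes stand at 1.28 and 1.30 in pair 1 and at or below 0.12 in the other litters, and lymphoid points stay between -0.39 and 0.32.

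Whether the label difference itself changed between pair 1 and pairs 2 and 3 was tested in a separate limma fit that let it vary between them. Of 27 members 0 were called by limma (lowest adjusted p = 0.325), where 0.0425% of all genes were. At an unadjusted p under 0.05 there were 4, beside 9.41% of all genes. They were Cd74, S100a8, S100a9 and Tyrobp. The contrast was 1.23 for S100a8 (limma adjusted p = 0.364), 1.66 for S100a9 (limma adjusted p = 0.364) and 0.76 for Tyrobp (limma adjusted p = 0.494).

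The larger contrast was between litters. With label kept in the fit, 12 of 28 members differed between pair 1 and pairs 2 and 3 by limma, 10 higher and 2 lower in pair 1. Over all genes 44.5% were called, 19.6% higher and 24.9% lower, a share near that of the members. The members' median was 0.17, against -0.05 over all genes, with 18 higher and 10 lower. Litter and scan batch cannot be told apart here, since pair 1 alone made up batch A.

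The 10 members higher in pair 1 were Lyz2, Mrc1 and Spi1 of the macrophage genes, S100a8 and S100a9, Cd4, Ptprc, Cd74, Ccl2 and Lyz1. Ccl2 exceeded pairs 2 and 3 by 1.03 (SE 0.12, limma adjusted p = 0.00148), and Ptprc by 0.72 (SE 0.13, limma adjusted p = 0.00496). Cd14 was lower in pair 1 by a log2 difference of -0.79 (SE 0.12, limma adjusted p = 0.00278), as was Cd79b by -0.47 (SE 0.11, limma adjusted p = 0.0168). The macrophage genes were therefore split, with the C1q chains, Fcer1g, Tyrobp, Aif1 and Cd163 not called. The calls rested on few arrays: without both arrays of pair 3 there were 2, Ccl2 and Lyz1, and without the pair 1 array labelled wildtype 6.

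Markers of neighbouring tissue differed between the same pairs. The mean level of 7 tested pancreas genes about their average was 1.11, -0.55 and -0.75 on arrays labelled knockout and 1.43, -0.72 and -0.52 on those labelled wildtype. That of 7 Paneth and goblet cell genes was 0.58, -0.56 and 0.13 on arrays labelled knockout and 0.74, -0.35 and -0.43 on those labelled wildtype. Both were highest in pair 1, and their part in the leukocyte values of pair 1 was not tested.

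**Figure D5:**
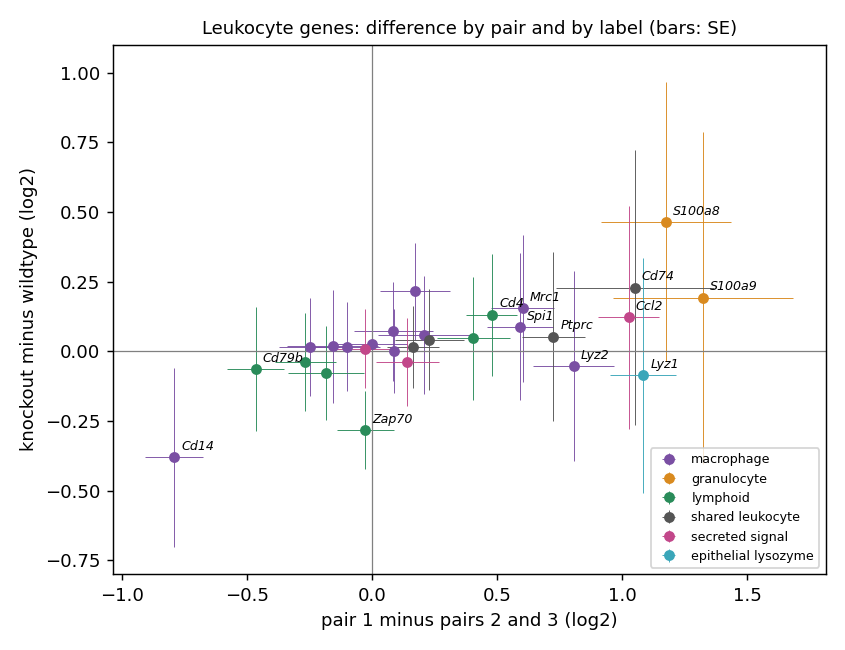
Each point is a tested leukocyte gene, with its difference between pair 1 and pairs 2 and 3 on the horizontal axis and its difference between arrays labelled knockout and wildtype on the vertical axis (log2, bars 1 SE). The spread between pairs, from -0.79 for Cd14 to 1.32 for S100a9, exceeds that between labels, from -0.38 to 0.46.

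Further leukocyte genes, none of them on the list of 34, were counted the same way and none was called by limma. Of 35 other macrophage genes tested, 20 were higher and 15 lower in arrays labelled knockout, with a median of 0.02 and 0 at an unadjusted p under 0.05. Those of largest test statistic were the pattern receptor Tlr2 (-0.69, SE 0.29), the myeloid transcription factor Cebpa (0.39, SE 0.24) and the tetraspanin Cd53 (-0.31, SE 0.23). Tlr2 and Cd53 had no value on the pair 1 array labelled wildtype, so these differences include the difference between litters. In pairs 2 and 3, the complete ones, Tlr2 differed by -0.54 and -0.33 and Cd53 by -0.09 and -0.20. Of 35 other lymphoid genes, 22 were higher and 13 lower, with a median of 0.04. Beside 1.13% of all genes, 1 gene of this list reached an unadjusted p under 0.05 by limma. That was Blnk, the adaptor downstream of the B cell receptor, at 8.59, 8.81 and 8.47 on arrays labelled knockout and 8.13, 7.65 and 8.04 on those labelled wildtype. Its groups did not overlap, and its difference of 0.68 (SE 0.19) was not called (limma adjusted p = 1.00), while Cd79a and Cd79b upstream of it differed by 0.05 and -0.06. In this list 2 genes were higher and 1 lower without overlap, beside 2.51% and 1.52% of all genes. The tetraspanin Cd37 also lacked a value on the pair 1 array labelled wildtype. It gave -0.43 over 5 arrays and -0.38 and -0.17 in pairs 2 and 3, and the granzyme Gzma gave 0.47 (SE 0.38).

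Of 17 other granulocyte and mast cell genes, 10 were higher and 7 lower in arrays labelled knockout, with a median of 0.05. The granule protein Ngp gave 0.40 (SE 0.22) and the chemokine receptor Cxcr2 0.56 (SE 0.44). Kit, the stem cell factor receptor and also a gene of pacemaker cells in gut muscle, gave -0.41 (SE 0.31), with -0.08 on its other probe. On the pair 1 array labelled knockout, where S100a8 and S100a9 peaked, Ngp was highest (8.87) and Kit lowest (7.83). Camp (8.25), Csf3r (9.10), Ltf (8.05) and Elane (7.05), chosen after their values were seen, were also highest on that array. Their next highest values were 7.21, 8.73, 7.92 and 6.62 in that order, each on an array labelled wildtype. Cxcr2 was lowest on both arrays of pair 1, at 7.39 on each. Of 25 chemokines, cytokines and receptors, 10 were higher and 15 lower, with a median of -0.04. Ccl20, an epithelial chemokine that attracts cells bearing Ccr6, read 8.73, 8.75 and 8.56 on arrays labelled knockout and 9.79, 9.25 and 9.39 on those labelled wildtype. All arrays labelled knockout lay below all labelled wildtype, and the difference of -0.80 (SE 0.19) was not called (limma adjusted p = 1.00). In this list 1 gene was higher and 1 lower without overlap, beside 2.51% and 1.52% of all genes. Csf2, a growth factor of granulocytes and macrophages, gave 0.56 (SE 0.26), and the chemokine Cx3cl1 0.33 (SE 0.15) with 0.01 on its other probe.

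Cell types that surround or feed leukocytes gave no called gene by limma. Of 7 erythroid genes, 5 were higher and 2 lower in arrays labelled knockout, including Alas2 of haem synthesis (-0.34) and the factor Klf1 (0.16). Of 9 endothelial genes, 8 were higher and 1 lower, led by Vwf, von Willebrand factor (0.78, SE 0.20), and the receptors Tie1 (0.25) and Kdr (0.16). Of 9 genes of spleen and pyloric mesenchyme, 3 were higher and 6 lower, led by the factors Gata3 (-0.42) and Nkx2-5 (-0.34) and the BMP antagonist Grem1 (-0.30). The median was 0.08 for the erythroid, 0.16 for the endothelial and -0.08 for the mesenchymal genes. Skeletal muscle genes had a median of -0.96, with 1 higher and 7 lower, including Tnnc2 (-1.78), Mylpf (-1.54) and Acta1 (-1.18). The liver genes were led by Apoa2 (1.13) and Fgg (0.92), both secreted by hepatocytes, and Afp. The pancreas genes had a median of -0.05, led by the digestive enzymes Cpb1 (-0.37), Cela1 (-0.32) and Cela2a (-0.29). The Paneth and goblet cell genes also had a median of -0.05, led by Agr2 (-0.66 without the pair 1 array labelled wildtype, and -0.82 and -1.23 in pairs 2 and 3), Spink4 (-0.49) and Zg16 (1.78). Neuroglial genes had a median of -0.02, led by Uchl1 (-0.24), S100b (0.24) and Elavl4 (-0.15). Smooth muscle genes had a median of 0.01, led by Cnn1 (-0.22), Tagln (-0.22) and Acta2 (0.07, and -0.09 on its other probe).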

How the data were processed

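RNA of 6 pyloric pieces was measured on one-colour CodeLink arrays from 2 ug of total RNA each. The authors' scanner files, per the file headers, hold the spot mean intensity and local background intensity of each of 36227 spots, not normalized. The deposited value table holds background-subtracted intensity on a linear scale, with array medians of 0.996 to 1.02. A genome build and further steps are not given in the sources used here.

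Spot means of 34967 gene probes were corrected with normexp (offset 50) in limma 3.58.1 (R 4.3.3), quantile normalized and log2-transformed. Values of spots with a masked, irregular or contaminated flag (0.418% to 3.34%) were left out. A probe was tested if not near background on at least 3 arrays and with 2 values per group, which left 30207 probes; the brightest stood for its gene. Symbols came from the platform annotation, updated through a RefSeq table (GRCm38.p6): 22114 probes had 1 symbol, 681 several and 12172 are unnamed here. Groups were compared with lmFit and eBayes, without a block, and Benjamini-Hochberg adjustment. The procedure was tested on simulated data. Replicates are separate embryos.

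After subtraction of group means, arrays of a pair correlated at 0.784, 0.409 and 0.576 over 15667 genes, and unpaired arrays of batch B at 0.536 and 0.636. These correlations therefore do not separate litter from scan batch, and the pairing rests on the animal codes. The members and lists were chosen with earlier results of these data known. All members with a probe are named, with the 3 genes of largest test statistic of each of the 14 other lists. A gene that this rule names is not reported here. Alternatives were other scaling, blocks, filters, probe rules, array weights and left-out arrays.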

Additional observations from a re-analysis of the deposited data

How the results depend on the processing

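No leukocyte gene was called between the labels by limma under any of 19 other settings, and the lowest adjusted p of a member was 0.131, within batch B. The count at an unadjusted p under 0.05, 0 in the fit without a block, was 1 with the litter pair as replicate block (Cd14), 2 with the scan batch as block, 3 within batch B (Cd14, Cd74 and Zap70), 4 with gene by gene array weights (with Ctss as well), and 0 to 3 with arrays left out. Over all genes that count was 189 without a block, 760 with the pair block, 978 with the scan batch block, 1923 within batch B and 1762 with array weights. The lymphoid median of -0.05 was 0.011 under median scaling and ran from -0.138 to 0.0368 with arrays left out. The granulocyte median of 0.33 was -0.33 without the pair 1 array labelled knockout and -0.15 within batch B. The contrast of pair 1 with pairs 2 and 3, added after seeing the data, called 2 to 12 members and 2116 to 6794 genes with arrays left out, against 12 and 7459, and 18 members under median scaling. Of 527 values of single members 91 changed sign, none of them called, and 4 moved by more than 1 SD between arrays: Zap70 (-0.57 in the authors' intensities and -0.56 in the value table), Lck (0.07 under median scaling) and Csf1 (0.11 without replicate 2). The causes were not tested. The number of arrays and the dimness of Adgre1, Cd3e, Mpo, Cd3g and Zap70 limit what can be seen.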
